A study of Mus musculus with 8 samples.

Results

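TNF superfamily ligands and their receptors were examined in bone marrow-derived macrophages (BMDMs), which are macrophages grown in culture from marrow cells with M-CSF. The 9 genes were taken by name, as 5 ligands (Tnf, Tnfsf9, Tnfsf10, Tnfsf13b and Tnfsf15) and 4 receptors (Tnfrsf1a, Fas, Tnfrsf1b and Cd40), from the 50615 genes of the deposited count table. All 9 passed the filter of a summed count of at least 10 over the libraries, which kept 17625 genes for testing. The control cells came from Ncoa6 fl/fl mice (Ncoa6-sufficient), which the sample labels call WT, and the knockout cells from Ncoa6 fl/fl LysM CRE mice (Ncoa6-KO), both of the C57BL/6 strain. Both genotypes carry the floxed Ncoa6 gene, so Cre is the only engineered difference between them named in the sources. Cre is expressed from the lysozyme 2 locus (Lyz2), which acts in myeloid cells, so deletion is limited to that lineage and Lyz2 itself is altered by the insertion. Cells were differentiated for 6 days with M-CSF at 20 ng/ml and then left in medium alone, or were primed with LPS, a bacterial Toll-like receptor ligand, at 100 ng/ml for 4 h and given monosodium urate (MSU) crystals at 200 µg/ml for 2 h. The sources used here give neither the age nor the sex of these mice. The 8 libraries make 4 groups of 2, the libraries of a group come from different mice, and the sources used here do not say whether 1 mouse gave both a resting and a stimulated culture.

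TNF superfamily ligands are mostly made as trimeric membrane proteins, and several of them are then shed by proteases to act at a distance. Their receptors fall into those with a cytoplasmic death domain, such as TNFR1 and Fas, which can recruit FADD and caspase-8, and those that bind TRAF adaptors and feed NF-κB and MAP kinase signalling, such as TNFR2 and CD40. In macrophages, Tnf is an early gene of the Toll-like receptor response, and its mRNA is held short-lived by AU-rich elements that proteins such as tristetraprolin bind.

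Counts summed to between 25281955 and 33673552 per library. Ncoa6 mRNA, the targeted transcript, measured 1515 and 1405 normalized counts in Ncoa6-sufficient and 784 and 622 in Ncoa6-KO BMDMs at rest, and 1297 and 1173 against 563 and 526 with LPS + MSU, and both differences were called (log2 fold change -1.05 and -1.18). In the paper loxP flanks only exon 7 of Ncoa6, so these whole-gene counts can hold reads from other exons of a deleted copy. They are therefore not a measure of how many copies were deleted. Normalized counts here are reads scaled so that every library has the same effective size, the mean of the 8. Of 7 macrophage markers, all 7 passed the filter, and their summed normalized counts were lower in Ncoa6-KO than in Ncoa6-sufficient BMDMs, at 244996 and 282774 against 381605 and 447516 at rest, and at 324118 and 346193 against 461967 and 530409 after stimulation. Without Lyz2, which carried much of that sum, they were 133002 and 155219 against 171712 and 175419 at rest, and 200853 and 216808 against 244632 and 260080 after stimulation. In Ncoa6-KO BMDMs 2 of the 7 were called lower at rest (Fcgr1 and Lyz2) and 3 after stimulation (Fcgr1, Lyz2 and Itgam). Of all genes tested, 1.30% were called lower at rest and 1.63% after stimulation. Summed levels of markers of other cells ran from 321 to 695 for neutrophils, from 11.2 to 50.3 for B cells (11.2 and 13.1 in stimulated Ncoa6-KO and at least 30.7 in every other library), from 26.6 to 111 for T and NK cells (Cd8a and Ncr1 at 0 in all libraries), from 18.9 to 278 for dendritic cells, and from 0 to 1.39 for mast cells (Mcpt4, Fcer1a and Tpsb2 at 0). The T and NK cell sum was lower in Ncoa6-KO than in Ncoa6-sufficient BMDMs, at 30.7 and 73.7 against 75.7 and 111 at rest and at 26.6 and 32.7 against 56.5 and 65.1 after stimulation. Nearly all of it was Cd4, the 1 gene of these 6 to pass the filter, at 29.9 and 73.7 against 75.7 and 110 at rest. After stimulation Cd4 measured 26.6 and 28.8 against 56.5 and 61.0. The dendritic cell sum was 166 and 194 against 219 and 278 after stimulation. Stromal markers summed to 391 to 819 in Ncoa6-sufficient BMDMs but split in Ncoa6-KO BMDMs, with 138 and 469 at rest and 176 and 707 after stimulation. Endothelial markers lay between 365 and 712 at rest and between 3063 and 6926 after stimulation, nearly all of it Kdr, and were lower in Ncoa6-KO than in Ncoa6-sufficient BMDMs in both conditions. No gene of the mast cell, neutrophil, B cell, T and NK cell, dendritic cell, stromal or endothelial lists was called between genotypes. The part of these levels in the values of the TNF superfamily genes was not tested. In bulk RNA, fewer cells of a type and less RNA per cell cannot be told apart.

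LPS + MSU raised 8 of the 9 genes in both genotypes, every member but Tnfsf13b. Of all genes tested, the stimulus raised 24.7% in control cells and 25.2% in knockout cells. The knockout effect was called for 1 member, Tnf, with medium alone, where 1.88% of all genes were called. The Tnf call was lost whichever of the 4 resting libraries was left out, at log2 differences of -0.80 to -0.63. To show the DNA in front of the strongly induced ligands beside that of the ligand that did not rise, the 250 bases upstream of the RefSeq start are given for Tnf, Tnfsf10, Tnfsf15 and Tnfsf13b on GRCm38.p6, 5′ to 3′ on the gene's strand, with letters that match one of 5 searched motifs in capitals.
Tnf, chr17:35202008-35202257, minus strand: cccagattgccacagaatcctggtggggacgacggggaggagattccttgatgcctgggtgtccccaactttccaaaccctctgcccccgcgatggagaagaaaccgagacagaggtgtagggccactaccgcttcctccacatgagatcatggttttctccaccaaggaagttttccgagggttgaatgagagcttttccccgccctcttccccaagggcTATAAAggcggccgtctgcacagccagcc
Tnfsf10, chr3:27316827-27317076, plus strand: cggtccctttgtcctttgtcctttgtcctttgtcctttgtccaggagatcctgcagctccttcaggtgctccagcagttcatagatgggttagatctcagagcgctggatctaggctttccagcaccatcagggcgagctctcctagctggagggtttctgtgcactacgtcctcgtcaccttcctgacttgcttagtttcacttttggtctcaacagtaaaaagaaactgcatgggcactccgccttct
Tnfsf15, chr4:63745060-63745309, minus strand: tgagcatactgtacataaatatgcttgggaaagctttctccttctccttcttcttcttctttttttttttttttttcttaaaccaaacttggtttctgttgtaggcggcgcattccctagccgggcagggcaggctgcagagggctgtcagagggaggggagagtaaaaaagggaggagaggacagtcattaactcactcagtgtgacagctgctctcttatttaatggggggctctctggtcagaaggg
Tnfsf13b, chr8:10006217-10006466, plus strand: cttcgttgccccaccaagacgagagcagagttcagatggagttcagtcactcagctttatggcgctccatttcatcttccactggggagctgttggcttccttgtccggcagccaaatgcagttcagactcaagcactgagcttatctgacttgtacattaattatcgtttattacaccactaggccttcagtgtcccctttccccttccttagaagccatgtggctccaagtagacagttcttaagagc

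Windows were held for 7 of the 9 genes, and Tnfsf9 and Cd40 had none in the RefSeq table used. On both strands, the searched letters were the κB consensus, GAAANNGAAA (the core of interferon response elements), TTCNNNGAA (the GAS element of STAT factors), TATAAA (a core promoter element) and TGANTCA (an AP-1 site), and no matches overlapped each other in the members' windows. In the printed windows the only match was the TATAAA of Tnf, 29 to 24 bases upstream of its start, a hexamer held by 12.4% of the 32851 mouse promoter windows of that length. Tnfsf13b has another RefSeq start, whose window (chr8:10006383-10006632) held GAAANNGAAA 16 to 7 bases upstream, as 2.98% of all windows do, and TGANTCA, as 6.75% do. The Tnfrsf1b window held GAAANNGAAA on the opposite strand 10 to 1 bases upstream and TTCNNNGAA, the Tnfrsf1a window held TTCNNNGAA, found in 7.02% of all windows, and the Fas window held TTCNNNGAA and TGANTCA. No member's window held the κB consensus, which 7.25% of all windows held; this says only that these letters are not within the stretch read. A match is a description of the letters and not of a bound site.

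Among the ligands, Tnf (chr17:35199381-35202007, minus strand), which encodes the founding cytokine of the family, measured 1068 and 946 normalized counts in Ncoa6-sufficient and 598 and 629 in Ncoa6-KO BMDMs at rest. With LPS + MSU it measured 80733 and 93808 in Ncoa6-sufficient and 87847 and 91028 in Ncoa6-KO BMDMs. Thus both resting knockout libraries lay below both resting controls, whereas after stimulation the knockout libraries lay within the range of the controls. Tnf fell 1.64-fold in resting Ncoa6-KO BMDMs (log2 fold change -0.72 ± 0.129 SE, 95% confidence interval -1.0 to -0.43, adjusted p = 0.0229, edgeR), a change that ranked 2797th in size among the 17625 genes tested. With LPS + MSU the log2 difference was 0.04 (interval -0.23 to 0.30, adjusted p = 0.923). Stimulation raised Tnf 86.6-fold (68.3 to 110) in Ncoa6-sufficient and 146-fold (114 to 187) in Ncoa6-KO BMDMs. The difference between these log2 changes, the interaction of genotype and stimulus, was 0.75 ± 0.177 (interval 0.36 to 1.14) and was not called in edgeR (unadjusted p = 0.00144, adjusted p = 0.437). DESeq2 on the same counts called it, at a difference of 0.70 and an adjusted p of 0.0104, and none of the 8 edgeR fits with a library left out did.

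**Figure D1:**
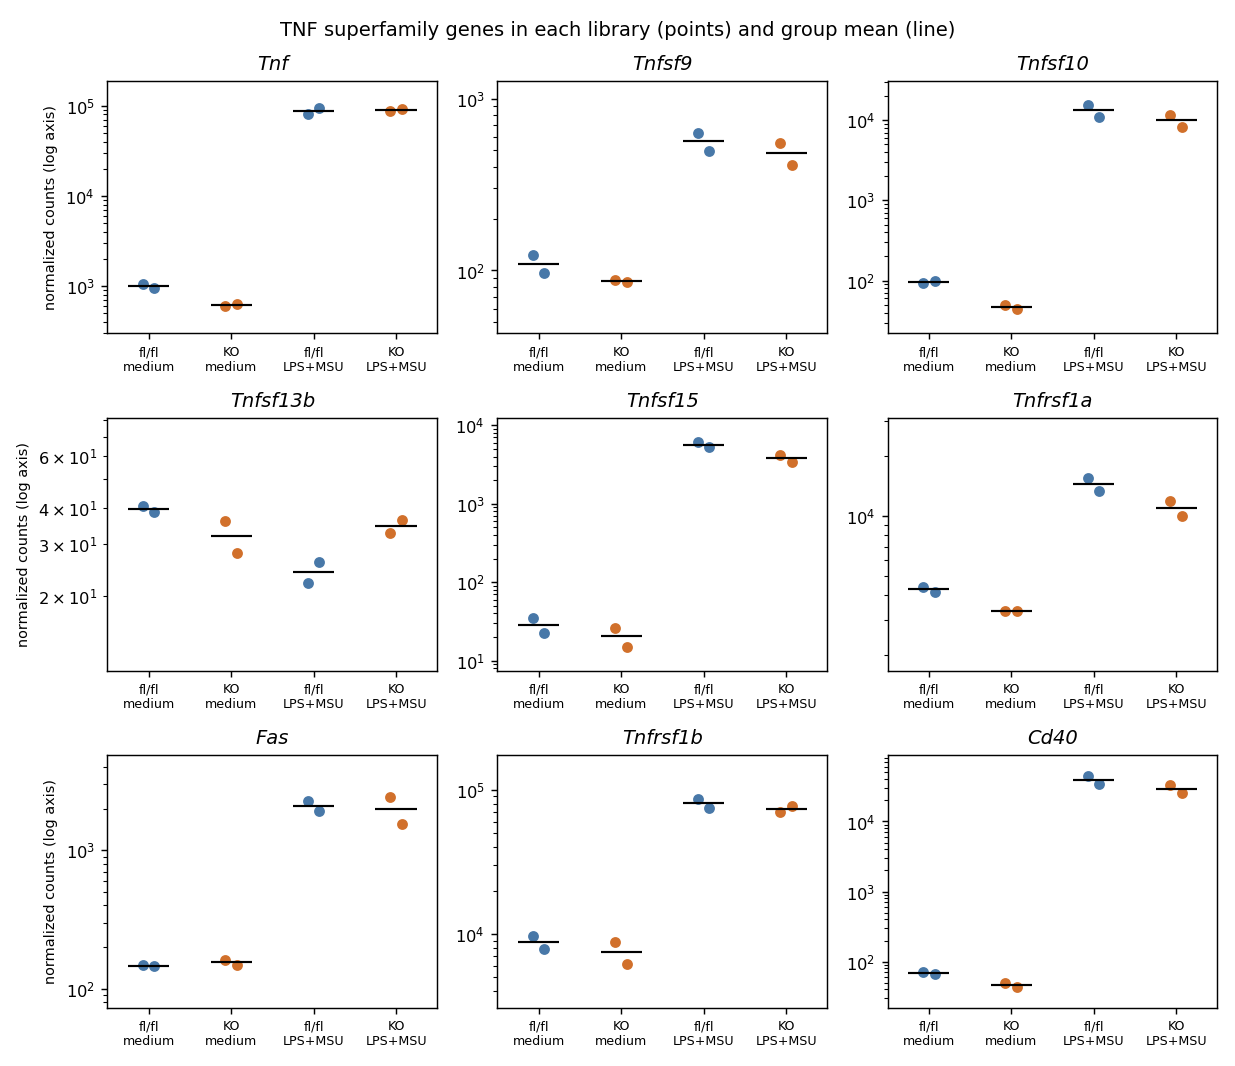
Normalized counts of the 9 genes on a log axis in each of the 8 libraries (points; blue, Ncoa6 fl/fl; orange, Ncoa6-KO) with the mean of the 2 libraries of a group (line). Tnf sits at 598 and 629 in resting Ncoa6-KO BMDMs and at 946 and 1068 in resting controls, and Tnfsf13b is the 1 panel without a rise under LPS + MSU.

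Tnfsf10 (chr3:27317028-27342427, plus strand) encodes TRAIL, a death ligand that interferon is known to induce. It measured 93.1 and 99.8 normalized counts in Ncoa6-sufficient and 49.4 and 43.9 in Ncoa6-KO BMDMs at rest. With LPS + MSU it measured 15372 and 11027 against 11680 and 8288. The resting genotypes were apart, with the knockout at 0.487 of the control level, the lowest ratio among the 9 genes, but the difference was not called (log2 -1.04 ± 0.267, interval -1.63 to -0.45, adjusted p = 0.0871, edgeR). After stimulation the genotypes overlapped (log2 -0.40, interval -0.79 to -0.02, adjusted p = 0.260). The rise with LPS + MSU was 137-fold (95.2 to 197) in Ncoa6-sufficient and 213-fold (145 to 312) in Ncoa6-KO BMDMs.

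Tnfsf15 (chr4:63727084-63745113, minus strand) encodes TL1A, a ligand of DR3 that costimulates T cells. Its resting levels were low and overlapped between genotypes, at 35.3 and 22.4 normalized counts in Ncoa6-sufficient and 25.7 and 14.9 in Ncoa6-KO BMDMs. After LPS + MSU it measured 6165 and 5215 against 4243 and 3373, so both knockout libraries lay below both controls. That difference was -0.58 ± 0.152 on the log2 scale (interval -0.92 to -0.24) and was not called in edgeR (adjusted p = 0.0666). Tnfsf15 rose 194-fold (137 to 275) in Ncoa6-sufficient and 182-fold (127 to 260) in Ncoa6-KO BMDMs, the second largest rise of the 9 genes in the former and the next one down in the latter.

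Tnfsf9 (chr17:57105325-57107757, plus strand), which encodes 4-1BB ligand, overlaps the lincRNA gene Gm11110 on the opposite strand. It measured 123 and 96.3 normalized counts in Ncoa6-sufficient and 88.3 and 86.1 in Ncoa6-KO BMDMs at rest, and 632 and 496 against 550 and 411 with LPS + MSU. The resting genotypes were narrowly apart and the stimulated ones overlapped, with log2 differences of -0.34 (interval -0.78 to 0.11) and -0.23 (interval -0.61 to 0.15). Tnfsf9 rose 5.12-fold (3.84 to 6.82) in Ncoa6-sufficient and 5.51-fold (4.10 to 7.40) in Ncoa6-KO BMDMs.

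Tnfsf13b (chr8:10006467-10039072, plus strand) encodes BAFF, a survival factor for B cells, and was the member with the fewest reads over the 8 libraries. It measured 40.5 and 38.7 normalized counts in Ncoa6-sufficient and 36.2 and 28.1 in Ncoa6-KO BMDMs at rest, and 22.2 and 26.2 against 32.7 and 36.4 with LPS + MSU. The knockout libraries therefore lay below the controls at rest and above them after stimulation, with log2 differences of -0.29 (interval -0.91 to 0.32) and 0.51 (interval -0.22 to 1.24), neither of which was called. In Ncoa6-sufficient BMDMs the stimulated libraries lay below the resting ones (log2 -0.71, interval -1.40 to -0.03, adjusted p = 0.0736), and in Ncoa6-KO BMDMs the libraries overlapped (log2 0.09, interval -0.56 to 0.75). The interaction was 0.81 (interval -0.15 to 1.76, adjusted p = 0.883), an interval that holds both 0 and a difference of over 2-fold.

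Of the receptors with a death domain, Tnfrsf1a (chr6:125349362-125362484, plus strand) encodes TNFR1, the receptor for soluble TNF found on most cells. It measured 4397 and 4136 normalized counts in Ncoa6-sufficient and 3318 and 3332 in Ncoa6-KO BMDMs at rest, and 15566 and 13323 against 11955 and 9999 with LPS + MSU. The knockout libraries lay below the controls in both culture conditions, by log2 differences of -0.36 (interval -0.62 to -0.10, adjusted p = 0.189) and -0.40 (interval -0.66 to -0.14, adjusted p = 0.102), neither called in edgeR. Tnfrsf1a rose 3.39-fold (2.81 to 4.07) in Ncoa6-sufficient and 3.30-fold (2.74 to 3.97) in Ncoa6-KO BMDMs, the smallest rise among the 8 genes that rose. Fas (chr19:34290666-34327772, plus strand), the receptor of Fas ligand, contains the small RNA gene Gm27818 on the same strand. It measured 148 and 145 normalized counts in Ncoa6-sufficient and 162 and 149 in Ncoa6-KO BMDMs at rest, and 2262 and 1936 against 2433 and 1557 with LPS + MSU. Its resting values differed by 0.09 on the log2 scale (interval -0.38 to 0.55) and its stimulated values, which overlapped, by -0.07 (interval -0.44 to 0.30). Fas rose 14.3-fold (10.6 to 19.4) in Ncoa6-sufficient and 12.8-fold (9.47 to 17.3) in Ncoa6-KO BMDMs.

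Among the receptors that signal through TRAF adaptors, Tnfrsf1b (chr4:145213463-145246870, minus strand) encodes TNFR2, which prefers membrane-bound TNF. It measured 9657 and 7892 normalized counts in Ncoa6-sufficient and 8740.0 and 6150.3 in Ncoa6-KO BMDMs at rest, and 86794 and 75109 against 69651 and 77475 with LPS + MSU. The genotypes overlapped in both conditions (log2 -0.24, interval -0.62 to 0.15, and log2 -0.14, interval -0.52 to 0.24). Tnfrsf1b rose 9.23-fold (6.92 to 12.3) in Ncoa6-sufficient and 9.88-fold (7.40 to 13.2) in Ncoa6-KO BMDMs. Cd40 (chr2:165055627-165072948, plus strand) encodes the receptor through which helper T cells license macrophages and dendritic cells. It measured 72.1 and 66.2 normalized counts in Ncoa6-sufficient and 49.4 and 43.9 in Ncoa6-KO BMDMs at rest, and 43987 and 34813 against 33257 and 25818 with LPS + MSU. Knockout libraries lay below control libraries in both conditions, by -0.56 (interval -1.07 to -0.06, adjusted p = 0.320) and -0.42 (interval -0.74 to -0.09, adjusted p = 0.167) on the log2 scale, and neither difference was called in edgeR. Its rise was the largest of the 9 genes, 568-fold (407 to 793) in Ncoa6-sufficient and 629-fold (448 to 884) in Ncoa6-KO BMDMs, the 35th and the 29th largest change among the 17625 genes tested.

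Set side by side, the response to LPS + MSU was called for 8 of the 9 genes in Ncoa6-sufficient BMDMs, all higher, with adjusted p values from 2.86e-10 to 9.53e-07 (edgeR). Over all genes 55.2% were called in that comparison, 24.7% higher and 30.5% lower. In Ncoa6-KO BMDMs the same 8 genes were called, all higher, where 53.1% of all genes were called, 25.2% higher and 27.9% lower. The median log2 change of the 9 genes was 3.84 and 3.68 in the respective genotypes, and the medians over all genes tested were -0.12 and -0.07. With the size factors of DESeq2 the all-gene medians were -0.0045 and -0.017, a shift far smaller than the changes of the 8 genes called.

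**Figure D2:**
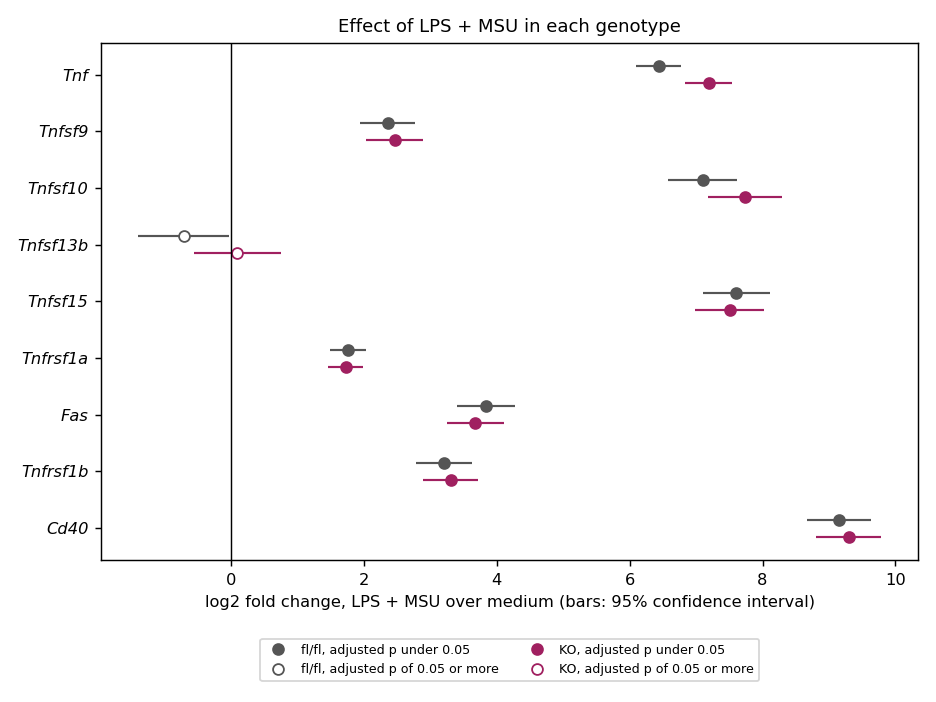
Log2 fold change of each gene with LPS + MSU over medium alone in Ncoa6 fl/fl (grey) and Ncoa6-KO BMDMs (magenta), with the 95% confidence interval from edgeR (bars) and filled points for adjusted p under 0.05. Cd40 lies farthest to the right at 9.15 and 9.30, and Tnfsf13b alone has open points, at -0.71 and 0.09.

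Between genotypes with medium alone, 1 of the 9 genes was called, Tnf, against 1.88% of all genes, of which 0.573% were higher and 1.30% lower. The members' median log2 difference was -0.36, with 8 of the 9 below 0, beside -0.03 over all genes tested. In 6 genes (Tnf, Tnfsf9, Tnfsf10, Tnfsf13b, Tnfrsf1a and Cd40) both knockout libraries lay below both control libraries, as in 24.5% of all genes, and in 1, Fas, above, as in 18.6%. The Tnf call did not hold when any 1 of the 4 resting libraries was left out, whichever it was, with log2 differences of -0.80 to -0.63 and adjusted p values of 0.0683 to 0.291. DESeq2 also called Tnfsf10 (adjusted p = 0.00148), and it called 496 of the 17625 genes, beside 331 in edgeR. At an unadjusted p under 0.05 stood 4 of the 9 genes (Tnf, Tnfsf10, Tnfrsf1a and Cd40), beside 12.8% of all genes.

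With LPS + MSU, 0 of the 9 genes were called between genotypes in edgeR, where 3.59% of all genes were called, 1.96% higher and 1.63% lower (345 and 287 genes; 346 and 503 in DESeq2). At an unadjusted p under 0.05 the count was 4 (Tnfsf10, Tnfsf15, Tnfrsf1a and Cd40), all lower in Ncoa6-KO BMDMs, beside 17.4% of all genes. DESeq2 called 3 (Tnfsf15, Tnfrsf1a and Cd40) and limma-voom 1 (Tnfsf15). Over all genes limma-voom called 441. The median over the 9 genes was -0.23, beside 0.00039 over all genes. Both knockout libraries lay below both controls for 3 genes (Tnfsf15, Tnfrsf1a and Cd40), as in 22.7% of all genes, and above them for 1 (Tnfsf13b), as in 24.7%. For the interaction, 0 of the 9 genes and 0% of all genes were called in edgeR. At an unadjusted p under 0.05 stood 1 member, Tnf, and 1045 of all genes (5.93%), DESeq2 called 43 genes with Tnf among them, and limma-voom called none.

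**Figure D3:**
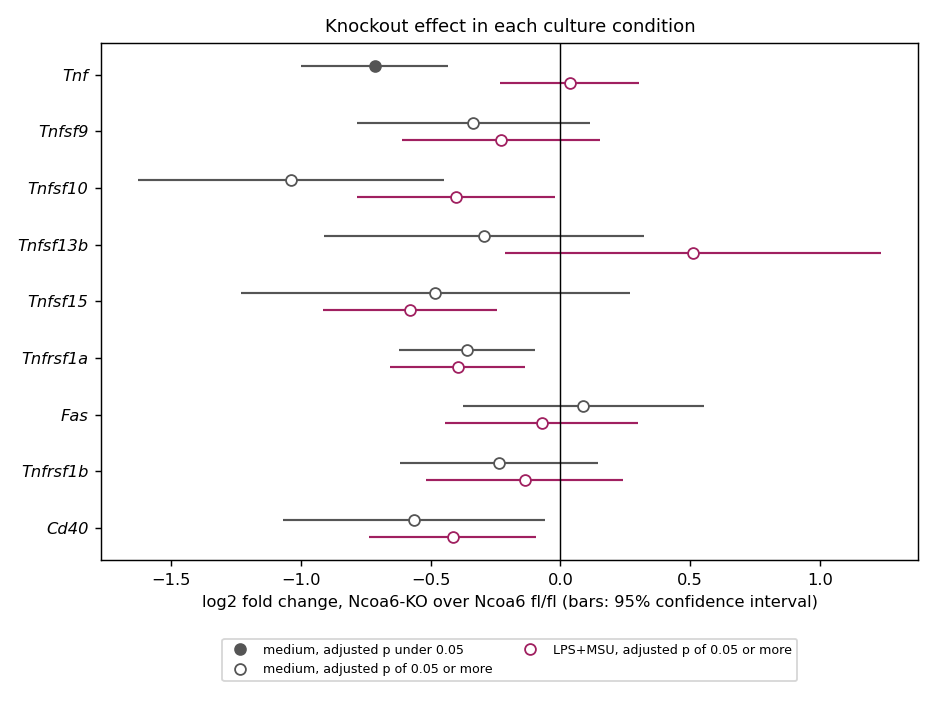
Log2 fold change of each gene in Ncoa6-KO over Ncoa6 fl/fl BMDMs with medium alone (grey) and with LPS + MSU (magenta), with 95% confidence intervals from edgeR (bars). The 1 filled point, for an adjusted p under 0.05, is Tnf with medium alone at -0.72, beside 0.04 with LPS + MSU.

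Levels were compared between genes as normalized counts per kb of exon, which corrects for transcript length. In resting Ncoa6-sufficient BMDMs the receptors Tnfrsf1b (2298 ± 327 SD, n = 2) and Tnfrsf1a (1647 ± 71.3) stood highest, followed by Tnf (614), Tnfsf9 (85.1), Fas (71.1), Cd40 (20.3), Tnfsf10 (18.3), Tnfsf15 (8.61) and Tnfsf13b (5.77). After LPS + MSU the order in the same genotype was Tnf (53246 ± 5641), Tnfrsf1b (21203 ± 2164), Cd40 (11568 ± 1904), Tnfrsf1a (5575), Tnfsf10 (2507), Tnfsf15 (1700), Fas (1018), Tnfsf9 (437) and Tnfsf13b (3.52). No neighbours in these orders overlapped between their 2 libraries. In Ncoa6-KO BMDMs the resting order differed by Fas (75.5) standing above Tnfsf9 (67.6), and the stimulated order was the same. The neighbours that overlapped there were Tnfsf15 (6.07 ± 2.28) and Tnfsf13b (4.68 ± 0.829) with medium alone and Tnfsf15 (1138 ± 184) and Fas (968 ± 300) with LPS + MSU. Dividing by the median length of a gene's annotated transcripts instead put Tnfrsf1a first at rest and Cd40 first after stimulation in Ncoa6-sufficient BMDMs, so the ranks of genes with many short transcripts depend on the length used.

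**Figure D4:**
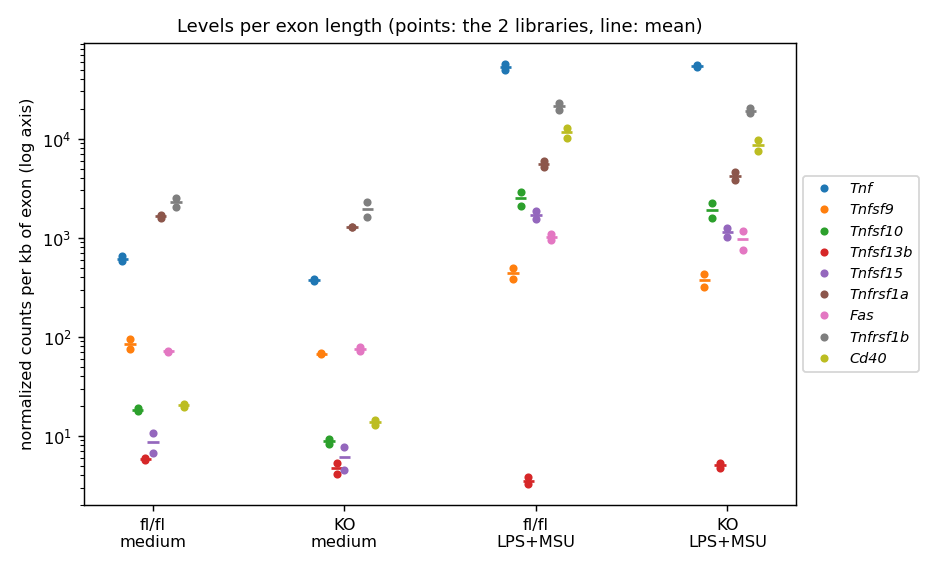
Normalized counts per kb of exon (log axis) of the 9 genes in the 4 groups, with the 2 libraries of a group as points and their mean as a line. Tnf moves from 614 per kb, below both TNF receptors, in resting Ncoa6 fl/fl BMDMs to 53246 per kb, the highest of the 9, with LPS + MSU, while Tnfsf13b stays lowest at 5.77 and 3.52.

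The 10 binding partners listed for the 9 genes, a list that is not complete, were mostly at low levels. Cd40lg and Fasl, the ligands of CD40 and Fas, and Tnfrsf13c, Tnfrsf17 and Tnfrsf25, receptors of BAFF and TL1A, did not pass the filter. Tnfrsf13b, which encodes the BAFF receptor TACI, measured 1067 and 1114 normalized counts in resting and 378 and 478 in stimulated Ncoa6-sufficient BMDMs, and fell in both genotypes (log2 -1.35 and -1.07). Tnfrsf10b, a murine TRAIL receptor, measured 129 and 176 in stimulated Ncoa6-sufficient and 229 and 355 in stimulated Ncoa6-KO BMDMs, so the knockout libraries lay above the controls without passing the test (log2 0.93, adjusted p = 0.0557, edgeR). Tnfrsf11b, a decoy receptor of TRAIL, stayed at or under 7.00 normalized counts in every library. The list of partners left out the TRAIL receptors Tnfrsf22 and Tnfrsf23. They measured 146 to 184 and 301 to 393 normalized counts at rest, and both were called lower with LPS + MSU in each genotype. Tnfrsf9, the 4-1BB receptor, was called for LPS + MSU in Ncoa6-sufficient BMDMs, from 4.50 and 2.58 to 24.9 and 12.4 (log2 2.34), and not in Ncoa6-KO BMDMs (log2 0.80, adjusted p = 0.423), with an interaction of -1.54 (adjusted p = 0.919). The call in Ncoa6-sufficient BMDMs was lost without Ncoa6-sufficient replicate 1 with LPS + MSU or replicate 2 with medium alone. Lta, which encodes lymphotoxin-α, another ligand of TNFR1 and TNFR2, rose in both genotypes (log2 4.60 and 4.33).

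Of 13 other TNF superfamily ligands, 10 were tested. With LPS + MSU, 5 rose and 2 fell in Ncoa6-sufficient and 6 rose and 1 fell in Ncoa6-KO BMDMs. Of all genes, 55.2% and 53.1% were called in these comparisons. Tnfsf4 (OX40 ligand; log2 5.04 and 4.58), Tnfsf18 (GITR ligand; 4.87 and 4.27) and Lta rose most in both. Tnfsf12, which encodes TWEAK, fell in both (-0.93 and -0.69), and Tnfsf13, which encodes APRIL, fell in Ncoa6-sufficient BMDMs (-0.65). Between genotypes none was called with medium alone in edgeR, where 3 of the 10 had an unadjusted p under 0.05, as 12.8% of all genes did. With LPS + MSU, 1 was called, Tnfsf13, at 444 and 539 normalized counts in Ncoa6-KO against 288 and 271 in Ncoa6-sufficient BMDMs (log2 0.81 ± 0.151, adjusted p = 0.0178). There 3.59% of all genes were called, and 3 of the 10 ligands had an unadjusted p under 0.05 in edgeR, beside 17.4% of all genes. Tnfsf12 and Tnfsf13 share exons with the read-through gene Tnfsfm13, so reads can be split between them. The Tnfsf13 call held in 1 of 4 fits with a library left out, that without Ncoa6-KO replicate 1.

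Among 24 other receptors of the superfamily, 18 were tested. With LPS + MSU, 4 rose and 7 fell in Ncoa6-sufficient and 3 rose and 7 fell in Ncoa6-KO BMDMs. Of all genes, 55.2% and 53.1% were called in these comparisons. Tnfrsf8, which encodes CD30, rose most (log2 4.08 and 3.57), followed by Tnfrsf14, which encodes HVEM (2.57 and 2.22). Those that fell most were Tnfrsf18, at 5.27 to 9.73 normalized counts at rest and at or under 1.40 after stimulation, Relt (-2.17 and -2.01) and Tnfrsf26 (-1.96 and -2.13). The Tnfrsf18 call was lost in each genotype in 2 of 4 fits with a library left out, those without Ncoa6-sufficient replicate 2 of either condition and without Ncoa6-KO replicate 1 of either condition. Between genotypes 1.88% of all genes were called with medium alone and 3.59% with LPS + MSU. At an unadjusted p under 0.05 in edgeR stood 6 of the 18 receptors in each condition, beside 12.8% and 17.4% of all genes. Eda2r, the receptor of ectodysplasin A2, was called in both conditions. It measured 16.5 and 21.5 normalized counts in Ncoa6-sufficient and 57.7 and 63.2 in Ncoa6-KO BMDMs at rest, and 5.54 and 13.8 against 64.0 and 65.8 with LPS + MSU (log2 1.67, adjusted p = 0.0271, and 2.73, adjusted p = 0.0060, edgeR). Tnfrsf11a, which encodes RANK, the osteoclast receptor, fell in stimulated Ncoa6-KO BMDMs, at 2177 and 1948 against 3854 and 3258 (log2 -0.79, adjusted p = 0.00638). The resting Eda2r call was lost without any 1 of the 4 libraries, and the stimulated Eda2r and Tnfrsf11a calls were lost without Ncoa6-sufficient replicate 1 or Ncoa6-KO replicate 2.

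Receptor adaptors and signalling genes, all 29 of which were tested, were called between genotypes in 0 cases with medium alone and in 0 with LPS + MSU in edgeR, where 6 and 5 had an unadjusted p under 0.05, as 12.8% and 17.4% of all genes did. With stimulation 17 rose and 6 fell in Ncoa6-sufficient and 16 rose and 6 fell in Ncoa6-KO BMDMs, where 55.2% and 53.1% of all genes were called. Traf1 (log2 5.54 and 6.02), a TRAF adaptor, Tnfaip3 (4.76 and 4.60), which encodes the ubiquitin-editing inhibitor A20, and Cflar (4.09 and 4.07), which encodes the caspase-8 inhibitor c-FLIP, rose most. Map3k14 (-1.85 and -1.49), the NF-κB-inducing kinase of the non-canonical pathway, Traf3 (-1.52 and -1.15), which keeps that kinase low, and Tab1 (-1.44 and -1.30), a partner of TAK1, fell most.

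Genes of ligand shedding and of TNF mRNA control, all 15 of which were tested, rose in 9 and fell in 5 cases with stimulation in Ncoa6-sufficient and rose in 8 and fell in 5 in Ncoa6-KO BMDMs. Of all genes, 55.2% and 53.1% were called in these comparisons. Rhbdf2 (log2 3.17 and 3.07), which encodes iRhom2, a partner of the TNF sheddase ADAM17, Zfp36 (3.10 and 2.76), which encodes tristetraprolin, and Zc3h12a (2.86 and 2.77), which encodes the RNase regnase-1, rose most. Zfp36l1 (-3.36 and -3.50), Zfp36l2 (-1.69 and -1.41) and Khsrp (-0.78 and -0.71), which encode RNA-binding proteins of AU-rich elements, fell most. Between genotypes none was called with medium alone in edgeR, where 7 of the 15 had an unadjusted p under 0.05 beside 12.8% of all genes, and 2 fell with LPS + MSU. With LPS + MSU 6 of the 15 had an unadjusted p under 0.05 in edgeR, beside 17.4% of all genes, and 3.59% of all genes were called. Zfp36 measured 24752 and 17220.0 normalized counts in Ncoa6-sufficient and 12180.1 and 11653 in Ncoa6-KO BMDMs (log2 -0.82 ± 0.147, adjusted p = 0.0155). Tnf overlapped between genotypes in the same libraries, and a link between Zfp36 and Tnf was not tested. Timp3, which encodes an ADAM17 inhibitor, measured 56.8 and 46.8 against 9.15 and 15.4 (log2 -2.07, adjusted p = 0.0453). Leaving out a library ended the Timp3 call in all 4 cases and the Zfp36 call in 3, all but that without Ncoa6-sufficient replicate 2, and a fit of only the stimulated libraries did not call Zfp36.

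**Figure D5:**
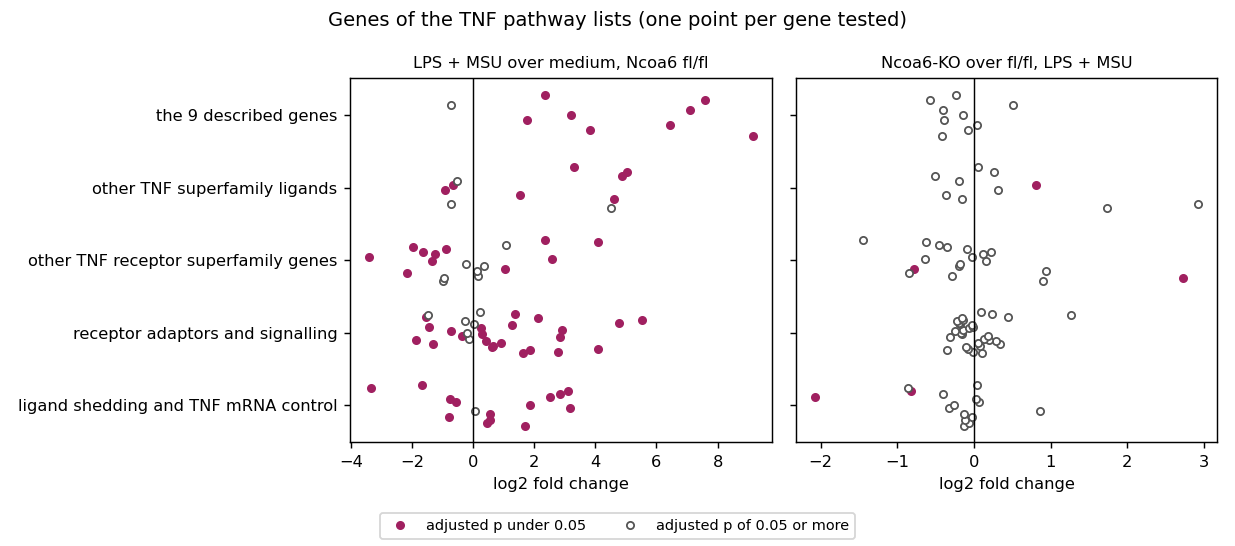
Log2 fold change of each tested gene of the 9 described genes and of the 4 pathway lists with LPS + MSU over medium in Ncoa6 fl/fl BMDMs (left) and in Ncoa6-KO over Ncoa6 fl/fl BMDMs with LPS + MSU (right), with filled points for an adjusted p under 0.05. The left panel has 8 of the 9 described genes filled and to the right of 0, and the right panel has filled points for Tnfsf13, Eda2r, Tnfrsf11a, Zfp36 and Timp3.

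The genes whose 4 group means were most like those of each member were found as the smallest Euclidean distance of centred log2 means among the 11218 genes whose mean reached 50 normalized counts. For Tnf these were Tnn (distance 0.208) and Mx2 (0.237), for Tnfsf10 Calhm6 (0.186) and Rsad2 (0.215), for Tnfsf15 Socs3 (0.149) and Bcl2a1a (0.161), and for Cd40 Serpina3g (0.194) and Cxcl11 (0.300). Few genes lay within a distance of 0.5 of these members, 6 for Tnf, 12 for Tnfsf10, 8 for Tnfsf15 and 3 for Cd40. The remaining members had many such neighbours, 308 for Tnfsf9 (nearest Junb and Rasa4), 465 for Tnfrsf1a (Msr1 and Sertad1), 87 for Fas (Ext1 and Gnb4) and 164 for Tnfrsf1b (Ikzf1 and F3). Bcl2a1a has near-identical copies that can share its reads, and Tnfsf13b was below the level needed for the comparison. Cxcl11 and Bcl2a1a were near the floor at rest, where their distances depend in part on the prior of 0.5 count. Their resting log2 means were 0.97 and 2.08 in Ncoa6-sufficient and 0.36 and 1.34 in Ncoa6-KO BMDMs.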

How the data were processed

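Poly(A) RNA of the 8 BMDM libraries (4 groups, 2 libraries each) was sequenced in pairs of reads from stranded libraries. The deposited values are expected counts per gene, which the authors estimated with STAR 2.7.3a and RSEM 1.3.3 on GRCm38 and did not normalize; 8.95% of the values are not whole. Here they were rounded, genes with a sum under 10 were left out as in the study's methods, and edgeR 4.0.16 was fitted to all 4 groups at once (TMM, quasi-likelihood test, 4 residual degrees of freedom) in R 4.3.3. The threshold for a call was 0.05 on p-values adjusted by Benjamini-Hochberg over all 17625 genes. With 2 libraries against 2 the smallest exact two-sided permutation p is 0.333, so p-values come from the fit across all genes and rest on 2 mice per group. Intervals are 95% confidence intervals of that fit. No column lacked a sample, and symbols matched 50295 of 50615 gene IDs.

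The 9 members, the lists, the tests and the alternatives were chosen with earlier results of these data known. The text names every member, the targeted gene, the listed binding partners of the members, up to 3 called genes with the largest change per list, direction and comparison, and the 2 genes nearest to each member (prior count 0.5). Fcgr1, Lyz2, Itgam, Kdr, Cd4, Tnfrsf22 and Tnfrsf23 were named after their values were seen. The lists were other ligands, other receptors, adaptors, shedding and mRNA control, and markers of macrophages, neutrophils, mast cells, B cells, dendritic cells, endothelial cells, stromal cells, and T and NK cells. Gene positions and exon lengths came from GENCODE vM21 (GRCm38), and promoter windows from RefSeq (GRCm38.p6). The alternatives were DESeq2 1.42.0, its size factors in edgeR, no filter, filterByExpr, limma-voom (limma 3.58.1) on unrounded counts, the replicate block, a fit of only the libraries compared, each library left out, and median transcript length. The code was tested on simulated data.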

Additional observations from a re-analysis of the deposited data

Results flagged for a closer look

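The knockout effect on Tnf differed between culture conditions by 0.75 on the log2 scale, with -0.72 with medium alone and 0.04 with LPS + MSU. This difference drew attention because a test of the interaction itself called it under some of the settings tried, although edgeR with the filter and design of the report did not (adjusted p = 0.437). The adjusted p was 0.0104 in DESeq2 and 0.00464 with no filter on low counts. With 1 library left out it was called in 0 of 8 fits, with differences of 0.60 to 0.83 and adjusted p values of 0.322 to 1.0. Resting knockout libraries lay below the resting controls in 2 of 2 libraries, and the stimulated libraries overlapped. No group had the 4 libraries that a check for outlying samples needs.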

How the results depend on the processing

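With medium alone the 1 member called became 2 in DESeq2, 3 with no filter on low counts and 3 with the replicate block across all groups, and the range over the 4 fits with a library left out was 0 to 0. With LPS + MSU the 0 members called became 3 in DESeq2, 4 with no filter, 1 in limma-voom and 4 with the replicate block. For the interaction 0 became 1, Tnf, in DESeq2, with no filter, and with the replicate block across all groups (adjusted p = 0.0408) and within genotype (adjusted p = 0.000178). The counts with the size factors of DESeq2, with filterByExpr and with only the libraries compared were those of the report, and the 8 genes called for LPS + MSU in each genotype stayed at 8 in every setting. Leaving out a library leaves fewer samples; the cause of the other changes was not tested.

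The sign of the Tnf difference with LPS + MSU turned in DESeq2 and with its size factors (-0.0018 in both). With 1 library left out, signs turned for differences near 0: with LPS + MSU, Tnf (-0.080 to 0.14) and Fas (-0.45 to 0.21); in the interaction, Tnfsf9 (-0.17 to 0.27), Tnfsf15 (-0.48 to 0.38), Tnfrsf1a (-0.23 to 0.045), Tnfrsf1b (-0.13 to 0.37), Fas (-0.57 to 0.084) and Cd40 (-0.10 to 0.28); and for stimulation of Ncoa6-KO BMDMs, Tnfsf13b (-0.065 to 0.30). Where a group keeps 1 library, that library is assumed to vary like the other groups.

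The replicate block was not used as a pairing, since the labels do not tie a number to a mouse. Each comparison also has only 2 pairs. Correlations of same-numbered deviations between resting and stimulated libraries were 0.334 in Ncoa6-KO and 0.257 in Ncoa6-sufficient BMDMs. Between groups of different genotype they ran from 0.0333 to 0.188. Whether same-numbered libraries share a mouse was not tested. Over all genes the block moved the calls with medium alone from 331 to 1023 and those with LPS + MSU from 632 to 1532, and no filter moved them to 1152 and 1611. A fit of only the stimulated libraries called 347. For the interaction the 0 calls became 43 in DESeq2, 269 with no filter, and 86 and 444 with the block across groups and within genotype. With 1 library left out, the calls ran from 22 (without Ncoa6-sufficient replicate 1) to 351 with medium alone, with 81 without Ncoa6-sufficient replicate 2 and 103 without Ncoa6-KO replicate 2. With LPS + MSU they ran from 49 (without Ncoa6-sufficient replicate 1) to 454, with 63 without Ncoa6-KO replicate 2 and 417 without Ncoa6-sufficient replicate 2. For the interaction they ran from 0 to 16 (without resting Ncoa6-KO replicate 1). Per-kb levels moved by more than 1 SD in 26 of 36 values with median transcript length. Tnfsf13b had 16 to 54 counts per library, and Tnfsf15 had 17 to 47 in the resting ones. With 2 libraries per group a missed threshold does not show that values are alike.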
